A study of Mus musculus with 9 samples.

Results

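The livers of mice that had recovered from thioacetamide (TAA) were compared with the livers of saline-injected control mice, to describe what still differed, or differed anew, once the toxin had been withdrawn. The comparison used the 3 recovery and the 3 control libraries, which are 6 of the 9 mRNA libraries of the series, and the 3 TAA libraries are given beside them for reference. All mice were male C57BL/6 mice, 8 weeks old when injections began. The control group received normal saline intraperitoneally, and the TAA group received TAA at 200 mg/kg every 3 days, both for 8 weeks, with collection 3 days after the last TAA injection. Mice of the recovery group were given the same TAA course and were then left uninjected for 8 more weeks. At collection they were thus older than the control mice by 8 weeks. With no age-matched saline mice analysed here, the effects of the earlier TAA course and of age cannot be told apart in any value below. The time since the last injection also differed between these groups and cannot be told apart from either. The table lists 21873 genes, and the 14094 genes with a mean of at least 0.1 FPKM (fragments per kilobase of gene length and per M fragments mapped) over the 9 libraries were tested.

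TAA is converted by liver cytochrome P450 enzymes to reactive products that kill hepatocytes around the central veins. Repeated dosing activates stellate cells, which lay down collagen, and expands cells of the bile ducts, while hepatocytes give up part of their specialised gene programme. When the toxin is withdrawn, hepatocytes divide and mature again and much of the scar is broken down. The healthy liver also runs on a daily clock, in which the BMAL1 and CLOCK proteins switch on their own repressors, and on sterol sensing, in which genes for making and importing cholesterol are switched off together when sterols are plentiful.

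Depth, estimated from the spacing of the lowest FPKM, was 26.95 to 35.6 M fragments for control libraries and 34.85 to 40.65 M for recovery libraries. FPKM were divided by a scaling factor per library, between 0.827 and 0.878 for control mice, 0.893 and 0.907 for recovery mice and 1.29 and 1.38 for TAA mice. Hepatocyte markers were high in all 6 libraries. Alb, which encodes albumin, was at 26759 to 30373 scaled FPKM in the control group and 33874 to 36663 in the recovery group, and 0 of the 9 tested hepatocyte markers passed the test in limma (1 had an unadjusted p under 0.05). Control replicate 1 was the shallowest library and stood apart in markers of other liver cells. Its summed level of the 8 Kupffer cell markers was 52.6 scaled FPKM, against 137 and 143 in the other control mice and 150 to 215 in the recovery mice. In whole liver, fewer cells of a type and less RNA per cell cannot be told apart.

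Fewer genes were called between recovered and control livers than between TAA and control livers. Of the 14094 genes, 140 (0.993%) were DEGs between the recovery and control groups, passing FDR < 0.05 and changed 2-fold or more. Of these, 82 (0.582%) were higher and 58 (0.412%) were lower in the recovery group. The median fold change of the 140 DEGs was 2.62, and 24 of them differed at least 4-fold. Without a limit on fold change, 187 genes (1.33%) were higher and 194 (1.38%) were lower at FDR < 0.05. By the same criteria, 3520 genes (25.0%) were DEGs between the TAA and control groups and 3017 (21.4%) between the recovery and TAA groups. All 140 DEGs had no overlap between the recovery and control libraries, which was the case for 4258 (30.2%) of all tested genes. At an unadjusted p under 0.05 in limma, 1595 genes were higher and 1647 were lower in recovery, 23% of all tested genes.

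**Figure D1:**
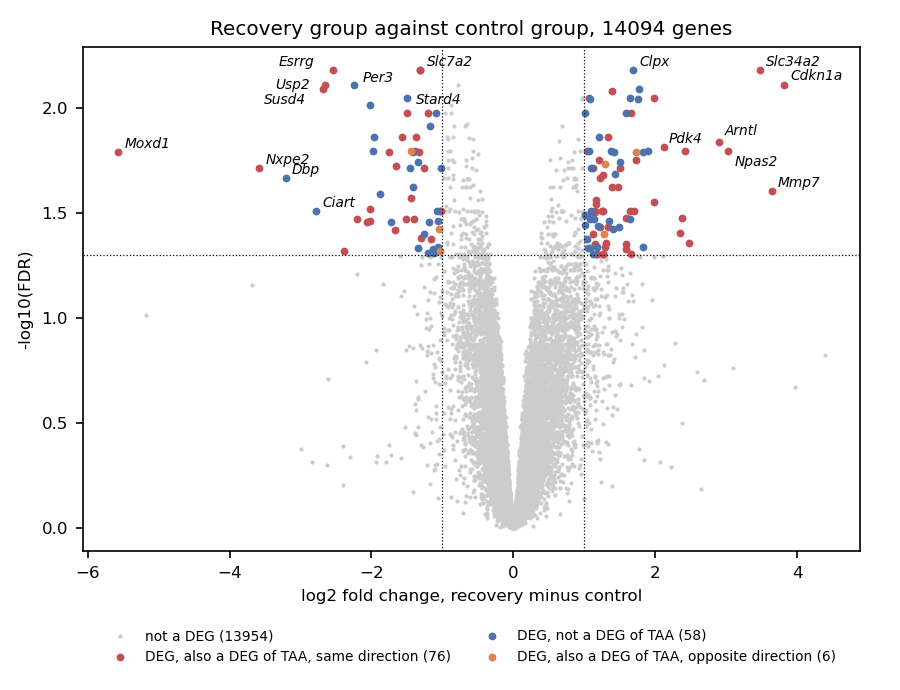
Each point is 1 of the 14094 tested genes, with the log2 fold change of the recovery group against the control group on the x axis and -log10 of the FDR on the y axis. Dotted lines mark a 2-fold change and FDR 0.05. The 140 DEGs lie in the upper corners, coloured by whether they were also DEGs of the TAA group in the same direction (76), not DEGs of the TAA group (58) or DEGs in the opposite direction (6).

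The number of DEGs depended on the libraries used. It was 103 without control replicate 1 and 106 without recovery replicate 1, but 51 and 36 without control replicates 2 and 3, and 32 and 39 without recovery replicates 2 and 3. Of the 140 genes, 18 stayed DEGs whichever library was left out. A set of 12 genes were DEGs in every alternative that tested them other than the test against a 2-fold change itself, by which 0 genes passed and 88 had an unadjusted p under 0.05. These 12 genes were Cdkn1a, Slc34a2, Cldn1, Clp1, Gadd45b and Clpx, which were higher, and Usp2, Esrrg, Per3, Serpine2, Gys2 and Slc7a2, which were lower. With FPKM as deposited, in place of scaled FPKM, 106 genes were higher and 47 were lower. The excess of higher genes turned with the libraries used, at 15 higher and 17 lower without recovery replicate 2 and 15 higher and 24 lower without recovery replicate 3.

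Set against the TAA group, the DEGs fell into 3 classes. The first class held 76 genes that were also DEGs under TAA in the same direction, of which 47 were higher and 29 were lower. The second held 58 genes that were not DEGs under TAA, of which 32 were higher and 26 were lower. The third held 6 genes that were DEGs of both groups in opposite directions, with Insig2, Slc30a10 and Elovl3 higher and 3 genes, Mvd among them, lower in the recovery group. Both comparisons use the same control libraries, so these counts describe the genes and are not a test of a shared change.

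The direct comparison of the recovery and TAA groups gives the difference between them. Of the 76 genes of the first class, 35 were DEGs of that comparison with the recovery group nearer to the control group, and 12 more were so at FDR < 0.05 only. Another 24 did not pass this test. The remaining 5 lay further from the control group in recovery than under TAA: Slc34a2, Npas2, Arntl and Usp2 as DEGs, and Tef at FDR < 0.05 only. Of the 58 genes of the second class, 25 were DEGs between the recovery and TAA groups, 21 more had FDR < 0.05, and 12 did not pass. In the TAA group, 25 of the 58 had FDR < 0.05 in the same direction with a change under 2-fold, 3 had FDR < 0.05 in the other direction and 30 did not pass. Of the 12 genes that did not pass between the recovery and TAA groups, 9 were among those 25, and Ly6c1, Myom3 and Cd274, named here after their values were seen, did not pass in either comparison with the TAA group.

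Cdkn1a showed the largest log2 fold change among the higher DEGs at the pseudocount of 0.1, an order that the low genes Mmp7, Npas2 and Tmem171 change at a smaller pseudocount. It encodes p21, an inhibitor of cyclin-dependent kinases that p53 and other stress signals switch on. Cdkn1a (ENSMUSG00000023067, chromosome 17, 29090976 to 29100727 in mm10) was at 0.870, 1.04 and 0.969 scaled FPKM in the control mice, 9.47, 16.8 and 20.3 in the recovery mice and 27.2, 34.4 and 37.8 in the TAA mice. Every recovery mouse stood above every control mouse and below every TAA mouse. The log2 fold change against the control group was 3.81 (SE 0.28, FDR = 0.00776), and that against the TAA group was -1.15 (FDR = 0.00856).

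The other genes of the p53 list did not rise with it. Of the 25 tested p53 targets, Cdkn1a alone passed at FDR < 0.05. An unadjusted p under 0.05 was found for 4 (16%), beside 23% of all tested genes. Ccng1, a p53-induced cyclin, was at 10.7 to 11.4 scaled FPKM in the control group, 10.0 to 10.1 in the recovery group and 39.2 to 44.4 in the TAA group. Bax, which drives cell death at the mitochondrion, was at 4.23 to 5.85, 5.95 to 6.17 and 16.1 to 17.3 in the same order of groups, with a log2 fold change of 0.26 in recovery (FDR = 0.288). Mdm2, the p53 ubiquitin ligase, had 0.08 (FDR = 0.705). Among the 7 tested inhibitors of cyclin-dependent kinases, Cdkn1a and Cdkn2c were higher. Cdkn2c, which encodes p18 and restrains CDK4 and CDK6, was at 1.54 to 1.85 in the control group and 3.55 to 5.05 in the recovery group, a log2 fold change of 1.27 (FDR = 0.0208). Cdkn2a, a gene often read as a mark of senescence, stayed between 0 and 0.26 scaled FPKM in all 6 libraries, with 0.83 (FDR = 0.189).

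By list median, proliferation genes were nearer to control levels than under TAA. Of the 23 tested genes of the cell cycle list, 1 (Top2a) passed at FDR < 0.05, beside 1.33% of all tested genes higher. The number that passed was 1 without recovery replicate 1 and 0 without any other single control or recovery library. At an unadjusted p under 0.05, 9 were higher and 3 were lower, 52.2% of the list beside 23% of all tested genes. The list median was 0.26 on the log2 scale, against 3.34 in the TAA group. Top2a, the topoisomerase that untangles replicated DNA, was at 0.373, 0.427 and 0.400 in the control mice and 0.933, 1.07 and 1.22 in the recovery mice, against 10.7 to 13.0 under TAA. Its log2 fold change was 1.22 (SE 0.16, FDR = 0.0216). Mki67, which encodes the proliferation antigen Ki-67, was at 0.104 to 0.184 in the control group and 0.363 to 0.863 in the recovery group and just missed the test (1.43, FDR = 0.0612). Rad54b, a helicase of homologous recombination, was higher by 1.73 (FDR = 0.0178) and was also higher under TAA.

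Histone genes of the Hist1 cluster, many of which cells express in S phase, were looked at as a second group. The group was taken by symbol after its values had been seen. Of the 51 tested Hist1 genes, 47 had a log2 fold change above 0, 7 were higher at FDR < 0.05 and 0 were lower. Of these, 5 were DEGs. Among all tested genes, 1.33% were higher at FDR < 0.05 and 0.582% were higher DEGs. The median was 1.03 in recovery and 2.61 under TAA. Hist1h1b, a linker histone, was at 0.595, 1.27 and 0.627 in the control mice, 2.79, 2.39 and 2.48 in the recovery mice and 21 to 22.9 in the TAA mice. Hist1 genes are similar in sequence, and how reads were divided among them is not given in the sources used here. This count rested on single libraries: 19 Hist1 genes were higher without control replicate 1, 1 without control replicate 2, 3 without recovery replicate 1, and 0 without control replicate 3 or without recovery replicate 2 or 3.

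Mmp7 and Epcam, which ductal epithelium expresses, were among the remaining DEGs, while the list of cholangiocyte markers had 1 called member of 10. Mmp7 (chromosome 9, 7692090 to 7727610), matrilysin, a protease made by ductal epithelium, was at 0.0233, 0.0427 and 0.254 scaled FPKM in the control mice, 1.24, 3.33 and 2.54 in the recovery mice and 31.9, 25.4 and 22.8 in the TAA mice. The recovery mice stood between the control and TAA mice without overlap, with 3.64 (SE 0.51, FDR = 0.0249) against the former and -3.53 (FDR = 9.4e-05) against the latter. Epcam, an adhesion protein of bile duct and progenitor cells, was at 0.249, 0.377 and 0.499 in the control mice and 1.10, 1.52 and 1.48 in the recovery mice, with a log2 fold change of 1.65 (SE 0.25, FDR = 0.0310). Epcam was that called member.

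The other cholangiocyte markers leaned the same way without passing. Of the 10, 9 had a log2 fold change above 0, with a median of 0.75 in recovery and 2.83 under TAA. At an unadjusted p under 0.05, 5 were higher and 1 was lower, 60% of the list beside 23% of all tested genes. Their summed level was 20.1 to 26.7 scaled FPKM in the control group, 34.3 to 45.1 in the recovery group and 313 to 460 in the TAA group. Sox9, a ductal transcription factor, was at 1.19 to 1.79 in the control group and 2.54 to 3.47 in the recovery group (0.85, FDR = 0.0810), and Spp1, osteopontin, was at 13.8 to 18.0 and 23.6 to 31.7 (0.73, FDR = 0.0581). Krt23 was the exception, at 1.29 to 2.19 and 0.704 to 0.934 (-0.93, FDR = 0.0881). Epcam did not pass when any single library was left out, and in the fit of all 9 libraries 5 markers were higher and 1 was lower. The part of the cholangiocyte marker sum in the levels of Mmp7, Epcam and Cdh1 was not tested.

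Cdh1 and Cldn1, which encode cell junction proteins, were also DEGs. Cdh1, E-cadherin, which marks periportal hepatocytes and ducts, was at 4.50, 4.66 and 4.96 in the control mice, 10.3, 9.30 and 10.4 in the recovery mice and 28.0 to 32.3 in the TAA mice, with a log2 fold change of 1.07 (SE 0.09, FDR = 0.00902). Cldn1, a tight junction claudin, was at 9.10, 10.2 and 11.4 in the control mice and 26.0, 25.4 and 29.7 in the recovery mice, where it did not differ from the TAA mice by the test (1.39 against control, FDR = 0.00837, and 0.19 against TAA, FDR = 0.21). Bicc1, an RNA-binding protein of tubular epithelia, Itga2, an integrin that binds collagen, and Hkdc1, a hexokinase, were higher by 1.15, 1.58 and 1.48 (FDR = 0.0312, 0.0472 and 0.0239). Cdh1 stood on the periportal list, and the other genes of this paragraph were picked after their values had been seen.

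By list median, the scar genes themselves were nearer to control levels than under TAA. In limma, 0 of the 17 tested collagen chains passed at FDR < 0.05. At an unadjusted p under 0.05, 6 were higher and 0 were lower, beside 1595 higher genes of all 14094 tested. The median was 0.35 on the log2 scale, with 15 of 17 above 0, against 2.31 under TAA. Without control replicate 1, the median was 0.21, with 13 of 17 above 0. Col1a1, the main chain of fibrillar scar, was at 1.04, 1.01 and 0.995 in the control mice, 1.16, 2.2 and 3.60 in the recovery mice and 49.3 to 78.2 in the TAA mice. The recovery mice spread over a 3-fold range that began next to the control mice (0.99, SE 0.37, FDR = 0.179). Col6a3, a chain of beaded filaments, came nearest to the limit, with 1.52 to 1.62 and 2.29 to 3.26 (0.74, FDR = 0.0638).

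Elastic fibre and crosslinking genes showed the same small excess. All 15 tested members had a log2 fold change above 0, with a median of 0.50 against 2.45 under TAA, and 0 passed (5 had an unadjusted p under 0.05). Without control replicate 1, 12 of the 15 were above 0 and 3 were below, with a median of 0.58. Eln, elastin, was at 0.390, 0.639 and 0.422 in the control mice and 0.966, 1.54 and 1.54 in the recovery mice, without overlap, and missed the limit at FDR = 0.0523 (1.31, SE 0.25). Lox and Loxl1 to Loxl3, the enzymes that crosslink collagen and elastin, had log2 fold changes of 0.75, 0.60, 0.41 and 0.31, with FDR of 0.222 to 0.457. Among 18 proteases and inhibitors, Mmp7 and Adamts1 were higher, the latter by 0.86 (FDR = 0.0219). Of the 9 markers of activated stellate cells and myofibroblasts, 0 passed (3 had an unadjusted p under 0.05), and Acta2, smooth muscle actin, was at 0.615 to 1.73 in the control group and 0.493 to 2.04 in the recovery group. Of the 9 quiescent stellate cell markers, 0 passed and 1 had an unadjusted p under 0.05.

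Plat and Inhba, picked after their values had been seen, were DEGs with roles in matrix turnover. Plat, tissue plasminogen activator, was at 0.154 to 0.265 in control mice, 0.553 to 0.833 in recovery mice and 7.28 to 11.5 in the TAA group, with a log2 fold change of 1.31 (FDR = 0.0439). Inhba, a subunit of activin A, was at 1.11 to 1.49, 2.59 to 3.67 and 2.15 to 2.91, with 1.19 (FDR = 0.0367).

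Slc34a2 (chromosome 5, 53038081 to 53071664), a sodium-phosphate cotransporter of epithelial cells, was higher after recovery than under TAA. It was at 0.227, 0.299 and 0.210 scaled FPKM in the control mice, 2.96, 3.65 and 4.75 in the recovery mice and 1.01, 0.800 and 0.885 in the TAA mice. The 3 groups did not overlap. The log2 fold change was 3.48 (SE 0.21, FDR = 0.00661) against the control group and 1.94 (FDR = 0.00016) against the TAA group.

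Gstm3, Cyp2b10 and Pdk4 were higher in recovery and under TAA, each from a list in which few members passed. Gstm3, a glutathione transferase, was at 6.42, 7.43 and 2.92 in the control mice, 22.4, 24.6 and 37.4 in the recovery mice and 212 to 393 in the TAA mice (2.38, SE 0.37, FDR = 0.0334). It was the single called gene among 20 of the NRF2 and glutathione list, of which 18 had a log2 fold change above 0. An unadjusted p under 0.05 was found for 8 (40%), beside 23% of all tested genes. Cyp2b10, a cytochrome P450 that foreign compounds induce through the receptor CAR, was at 0.233, 0.136 and 0.215 in the control mice and 0.914, 3.08 and 1.21 in the recovery mice (2.47, SE 0.43, FDR = 0.0439), and no other of the 11 AhR, CAR and PXR targets passed. Pdk4, which shuts pyruvate out of oxidation, was at 3.85, 5.42 and 2.68 in the control mice, 16.6, 23.0 and 24.0 in the recovery mice and 15.5 to 25.0 in the TAA mice. Its level in recovery did not differ from that under TAA by the test (0.09, FDR = 0.75), while the rise against the control group was 2.42 (SE 0.27, FDR = 0.0161).

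Most other genes of fatty acid oxidation lay slightly below the control level. Of the 14 tested genes of fatty acid oxidation and ketogenesis, Pdk4 and Angptl4 (0.51, FDR = 0.0178), an inhibitor of lipoprotein lipase, were higher and Hadhb (-0.44, FDR = 0.0439), a subunit of the mitochondrial trifunctional protein, was lower. The list median was -0.21, with 10 of 14 below 0, and 3 were higher and 7 lower at an unadjusted p under 0.05. The groups did not overlap in 12 of the 14, beside 30.2% of all tested genes. Plin2, the coat protein of lipid droplets, was at 287, 386 and 300 in the control mice and 610, 530 and 683 in the recovery mice (0.91, FDR = 0.0378). It had been at 229 to 258 under TAA.

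The other large rises were in genes with scattered roles. Gldn, an adhesion protein first known from nerve, Dhrs9, a dehydrogenase of retinol and steroids, and Tubb2a, a beta tubulin, were higher by 2.35, 1.98 and 1.99 (FDR = 0.0394, 0.00902 and 0.0281) and had been DEGs of the TAA group as well. Tmem171 was at 0, 0.0400 and 0 scaled FPKM in the control mice and 0.326 to 0.509 in the recovery mice (2.12, FDR = 0.0154). Phospho1, a phosphatase of phosphocholine, was at 6.40, 7.22 and 6.17 in the control mice, 22.2, 19.5 and 35.1 in the recovery mice and 3.56 to 5.11 in the TAA mice, so that the recovery mice stood above both other groups (1.90 against control, FDR = 0.0161, and 2.54 against TAA, FDR = 9.2e-05). Lrfn3, an adhesion protein with leucine-rich repeats, had the same order, with 1.74 to 3.05, 7.51 to 8.52 and 2.77 to 3.21. Ly6c1, a surface protein of endothelial cells and leukocytes, was at 0.107 to 0.353 and 0.716 to 1.12 (1.83, FDR = 0.0459).

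Among the genes that stayed low, Moxd1 had the largest fall, with a wide spread in the control group. Moxd1 (chromosome 10, 24223517 to 24302790), a monooxygenase related to dopamine beta-hydroxylase, was at 1.71, 6.32 and 12 scaled FPKM in the control mice, 0.0104, 0.0179 and 0 in the recovery mice and 0 to 0.0242 in the TAA mice. The recovery and TAA mice were alike close to 0 (0.01 between them, SE of the fall against control 0.65, log2 fold change -5.57, FDR = 0.0162). Nxpe2 was at 4.79, 5.92 and 7.19 in the control mice, 0.288, 0.214 and 0.925 in the recovery mice and 0.147 to 0.165 in the TAA mice (-3.58, SE 0.45, FDR = 0.0193).

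Susd4, Esrrg and Fitm1 had come part of the way back. Susd4, a regulator of complement, was at 12.3, 14.1 and 15.5 in the control mice, 2.54, 1.51 and 2.31 in the recovery mice and 0.140 to 0.228 in the TAA mice (-2.69, SE 0.20, FDR = 0.00817). Esrrg (chromosome 1, 187608791 to 188214885), an orphan nuclear receptor of mitochondrial and energy genes, was at 1.60, 1.93 and 2.09 in the control mice, 0.211, 0.240 and 0.264 in the recovery mice and 0.0141 to 0.0233 in the TAA mice (-2.54, SE 0.17, FDR = 0.00661). Fitm1, which partitions fat into lipid droplets, was at 17.2 to 34.5, 3.46 to 7.48 and 0.260 to 0.867 in the same order (-2.21, FDR = 0.0337). In each of these 3 genes the recovery mice lay between the control and TAA mice without overlap with either.

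A set of genes of hepatocyte metabolism also stayed lower. They were picked after their values had been seen, apart from Oat, which stood on the pericentral list. Gys2, liver glycogen synthase, was at 153, 129 and 132 in the control mice, 57.1, 56.0 and 52.5 in the recovery mice and 26.9 to 38.2 in the TAA mice (-1.32, SE 0.09, FDR = 0.00661). Slc7a2, a transporter of arginine and other cationic amino acids, was at 282, 301 and 322 in the control mice and 118, 126 and 120 in the recovery mice (-1.31, SE 0.08, FDR = 0.00661), against 69.6 to 98.8 under TAA. The recovery mice of both genes lay below every control mouse and above every TAA mouse. Etnk2, an ethanolamine kinase of phospholipid synthesis, was at 166 to 185 in the control group and 56.2 to 82.1 in the recovery group, a level that did not differ from that under TAA by the test (54.5 to 62.6, FDR = 0.17).

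Oat, ornithine aminotransferase, a gene of the hepatocytes around the central vein, was at 1129, 1178 and 808 in the control mice, 308, 378 and 464 in the recovery mice and 10.0 to 18.4 in the TAA mice (-1.44, SE 0.20, FDR = 0.0270). Of the 12 tested pericentral genes, Oat and Slc1a2, a glutamate transporter (-0.70, FDR = 0.0304), were lower and 0 were higher. The share of all tested genes called lower was 1.38%. At an unadjusted p under 0.05 in limma, 2 of the 12 were higher and 3 were lower. Glul, glutamine synthetase, which marks the innermost pericentral layer, was at 456 to 514 in the control group and 405 to 478 in the recovery group (-0.14, FDR = 0.434). Of the 10 periportal genes, Cdh1 and Cyp2f2 (0.64, FDR = 0.0454), a cytochrome P450, were higher. The share of all tested genes called higher was 1.33%. At an unadjusted p under 0.05 in limma, 3 of the 10 were higher and 2 were lower. Lhpp, a phosphatase, Gpcpd1, which breaks down glycerophosphocholine, and Sult2a8, a sulfotransferase of bile acids, were lower by -1.38, -1.50 and -1.02 on the log2 scale (FDR = 0.0161, 0.0106 and 0.0310) and had been lower still under TAA.

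**Figure D2:**
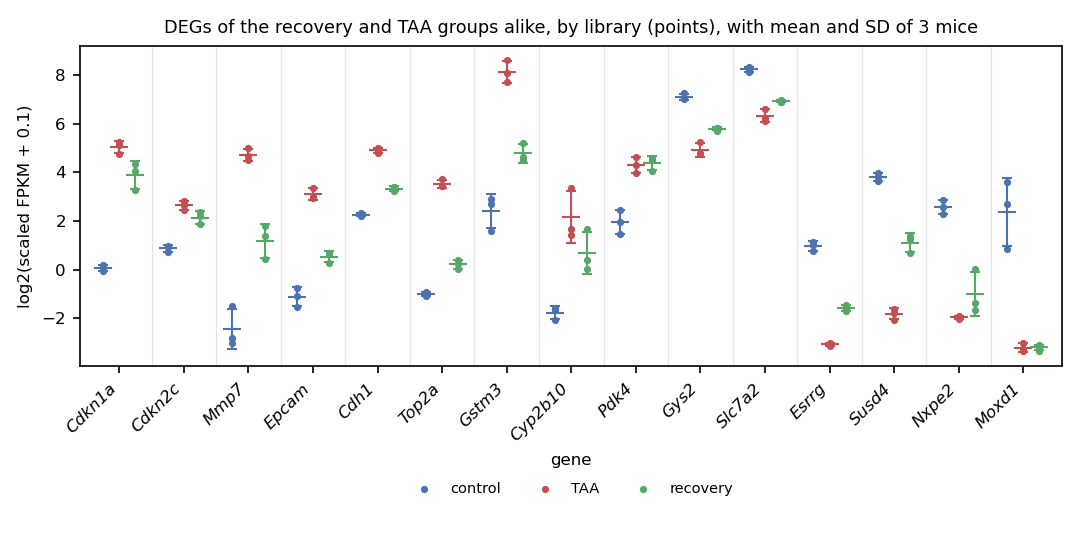
Points are single mice, on a y axis of log2(scaled FPKM + 0.1), for 15 DEGs (x axis) that differed from the control group in the same direction in the TAA and recovery groups, with the mean and SD of 3 mice as bars. Cdkn1a, Mmp7, Epcam, Cdh1, Top2a and Gstm3 in the recovery group lie between the control and TAA groups, and Pdk4 and Moxd1 lie at the level of the TAA group.

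Male-biased liver genes were nearer to the control level than under TAA, and several major urinary protein genes were lower. These proteins are pheromone carriers that hepatocytes of male mice secrete under pulsatile growth hormone. Of the 14 tested male-biased genes, Mup12, Hsd3b5 and Slco1a1 were lower and Elovl3 was higher, with a list median of -0.33 in recovery and -5.76 under TAA. These calls were lost without control replicate 1, 2 or 3 or recovery replicate 3, where 0 of 14 passed, and 2 and 1 were lower without recovery replicates 1 and 2. Hsd3b5, a ketosteroid reductase of male liver, was at 15.5, 16.7 and 15 in the control mice, 5.53, 2.16 and 4.51 in the recovery mice and 0.0379 to 0.0940 in the TAA mice (-2.03, SE 0.32, FDR = 0.0345). Elovl3, an elongase of very long chain fatty acids, was at 55.3, 81.7 and 68.9 in the control mice, 145, 138 and 219 in the recovery mice and 0.0924 to 0.104 in the TAA mice, so that it had passed the control level (1.27, SE 0.21, FDR = 0.0398). Of the 13 tested female-biased genes, 0 passed and 3 had an unadjusted p under 0.05.

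Among 20 tested Mup genes, 17 had a log2 fold change below 0 in recovery, with a median of -1.09 against -8.69 under TAA. Mup12, Mup13, Mup18 and Mup19 passed at FDR < 0.05, all of them lower, beside 1.38% of all tested genes lower. Over the fits that left out 1 library, their highest FDR was 0.107, 0.101, 0.119 and 0.131 in that order. Mup12 was at 5542, 7819 and 9342 in the control mice, 2196, 1144 and 2223 in the recovery mice and 1.5 to 27.9 in the TAA mice (-2.06, SE 0.33, FDR = 0.0349), and Mup19 was at 527 to 659, 67.1 to 240 and 0 to 0.0131 (-2.39, FDR = 0.0479). Mup20 and Mup3 were near the control level, with 0.10 and -0.09. Mup genes are near-identical copies, so the division of reads among them is uncertain and single members are given with that limit.

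Circadian clock genes were called in both directions. In the clock, the BMAL1 protein (gene Arntl) pairs with CLOCK or NPAS2 and binds E-box letters, where it switches on Per, Cry, Nr1d and Dbp genes. REV-ERB proteins (Nr1d1, Nr1d2) repress Arntl and Npas2 through RORE letters, and DBP, TEF and HLF act on D-box letters. Positive and negative parts therefore peak at opposite times of day. The hour at which each mouse was killed is not given in the sources used here, so a different phase at collection and a changed clock cannot be told apart.

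Of the 24 tested clock genes in 3 lists, 12 (50%) passed at FDR < 0.05, beside 1.33% of all tested genes higher and 1.38% lower. There were 3 higher genes, all of the positive arm, and 9 lower genes, all of the negative arm or the output, and 10 were DEGs. The recovery and control libraries did not overlap in 20 of the 24, beside 30.2% of all tested genes. The lists were written with earlier results known in which Arntl, Npas2, Dbp, Ciart and Usp2 already stood out. Without control replicates 1, 2 and 3 in turn, 10, 6 and 3 clock genes passed, and without recovery replicates 1, 2 and 3, 10, 5 and 6.

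In the positive arm, 3 of 5 tested genes were higher and 2 lay below 0. Of these 2, the one with the larger fall had -0.64 and an unadjusted p under 0.05, but did not pass. Arntl (ENSMUSG00000055116, chromosome 7, 113207465 to 113314126) was at 0.424, 0.971 and 0.635 scaled FPKM in the control mice, 3.98, 6.11 and 6.64 in the recovery mice and 1.54, 1.79 and 1.85 in the TAA mice. The 3 groups did not overlap, and the log2 fold change was 2.90 (SE 0.31, FDR = 0.0145) against the control group and 1.61 (FDR = 0.00043) against the TAA group. Npas2 was at 0.0104, 0.0465 and 0.0770 in the control mice and 0.703, 1.71 and 0.960 in the recovery mice (3.03, SE 0.34, FDR = 0.0161). Clock itself moved less, with control mice at 11.7 to 12.5 and recovery mice at 18.2 to 19.8 (0.65, SE 0.07, FDR = 0.0144), and was not a DEG. Rora, a nuclear receptor that switches on Arntl through RORE letters, was at 19.9 to 22.2 in control mice and at 18.1 to 19.1 in recovery mice, a log2 fold change of -0.16 (FDR = 0.242).

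The repressors were down in part. Per3 was at 7.94, 6.50 and 7.67 in the control mice, 1.75, 1.52 and 1.19 in the recovery mice and 5.60 to 6.08 in the TAA mice (-2.24, SE 0.17, FDR = 0.00776 against control, and -1.92, FDR = 5.8e-05 against TAA). Ciart, which encodes the repressor CHRONO, was at 7.55, 6.82 and 10.1 in the control mice, 0.614, 2.16 and 0.926 in the recovery mice and 4.52 to 7.10 in the TAA mice (-2.78, SE 0.42, FDR = 0.0310). Nr1d2 (-1.09, FDR = 0.0105), Cry2 (-0.92, FDR = 0.0161) and Bhlhe41 (-1.67, FDR = 0.0382) were lower as well. Per1, Per2, Cry1, Nr1d1 and Bhlhe40 did not pass, with log2 fold changes of -0.39, -1.02, 0.20, -0.47 and -0.48. Per2, at 4.28 to 5.98 in the control group and 1.59 to 3.19 in the recovery group, had no overlap and FDR = 0.0943.

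Of the 9 tested output genes, 4 were lower and 0 were higher, and Dbp had the largest fall of the 24 clock genes. Dbp, a transcription factor that carries the rhythm to metabolic genes, was at 55.6, 47.1 and 55.4 in the control mice, 10.3, 5.92 and 2.85 in the recovery mice and 26.3 to 35.2 in the TAA mice (-3.21, SE 0.42, FDR = 0.0216). Its partner Tef was at 64.7 to 81.5, 19.4 to 28.5 and 32.3 to 38.6 in the same order of groups (-1.57, FDR = 0.0138), while Hlf was at 8.01 to 9.61 and 7.29 to 8.26 in the control and recovery groups (-0.21, FDR = 0.273). Usp2, a deubiquitinating enzyme with a strong daily rhythm, was at 19.2, 15.7 and 19 in the control mice and 3.22, 3.12 and 2.08 in the recovery mice (-2.65, SE 0.18, FDR = 0.00776), below the 8.34 to 9.71 of the TAA mice. Wee1, a cell cycle kinase under clock control, was at 5.44 to 7.51, 1.16 to 1.82 and 6.38 to 8.07 (-1.97, FDR = 0.0138).

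The promoters of a few of these genes are shown because these letters are the ones through which the clock proteins named above act. Each runs from 250 bases before to 50 after the RefSeq start, 5′ to 3′ on the strand of the gene, in GRCm38.p6, with motif matches in capitals. Arntl, chr7:113207261-113207560, plus strand, holds the RORE core TAGGTCA. Per3, chr4:151044616-151044915, minus strand, holds the D-box TTATGTAA in 2 places. Ciart, chr3:95882179-95882478, minus strand, holds the E-box CACGTG in 3 places. Tef, chr15:81802423-81802722, plus strand, holds the E-box once.
Arntl: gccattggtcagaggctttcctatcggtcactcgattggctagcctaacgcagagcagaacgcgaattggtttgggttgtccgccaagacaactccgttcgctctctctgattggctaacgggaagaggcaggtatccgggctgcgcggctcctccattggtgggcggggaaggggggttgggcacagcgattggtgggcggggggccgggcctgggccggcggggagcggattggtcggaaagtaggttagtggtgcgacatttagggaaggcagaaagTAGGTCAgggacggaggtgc
Per3: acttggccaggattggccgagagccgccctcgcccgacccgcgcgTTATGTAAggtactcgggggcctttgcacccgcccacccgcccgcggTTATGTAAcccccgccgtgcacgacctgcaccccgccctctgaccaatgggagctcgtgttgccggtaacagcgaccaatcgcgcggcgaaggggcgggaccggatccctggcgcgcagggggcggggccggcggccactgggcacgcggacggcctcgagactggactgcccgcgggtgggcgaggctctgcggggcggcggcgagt
Ciart: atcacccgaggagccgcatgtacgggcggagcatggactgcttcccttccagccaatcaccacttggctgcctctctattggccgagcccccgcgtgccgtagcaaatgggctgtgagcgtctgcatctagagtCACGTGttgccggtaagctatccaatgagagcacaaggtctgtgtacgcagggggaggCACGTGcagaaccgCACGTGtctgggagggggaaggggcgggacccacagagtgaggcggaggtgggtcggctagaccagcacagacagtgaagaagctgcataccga
Tef: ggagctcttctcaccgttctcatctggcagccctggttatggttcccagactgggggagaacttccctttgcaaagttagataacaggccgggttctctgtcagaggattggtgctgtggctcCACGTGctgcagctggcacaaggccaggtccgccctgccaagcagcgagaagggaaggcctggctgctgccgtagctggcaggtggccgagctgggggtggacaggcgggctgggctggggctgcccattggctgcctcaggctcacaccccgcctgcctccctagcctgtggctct

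The RORE core of Arntl began 30 bases after the start. The D-boxes of Per3 began 205 and 158 bases before the start, the E-boxes of Ciart 116, 58 and 44 bases before it, and that of Tef 127 bases before it. Both strands were searched, and the matches in these windows did not overlap. CACGTG was found in the window of 8.09% of all 27025 genes with a promoter in the table, TTATGTAA (TTACATAA on the other strand) in 1.11% and TAGGTCA in 2.97%. Of the 20 clock genes with a promoter there, 6 held the E-box (Per1, Cry1, Ciart, Bhlhe41, Tef and Lonrf3), 1 the D-box and 2 the RORE core (Arntl and Nfil3). Per1 and Cry1, with an E-box in the window, did not pass the test in recovery.

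**Figure D3:**
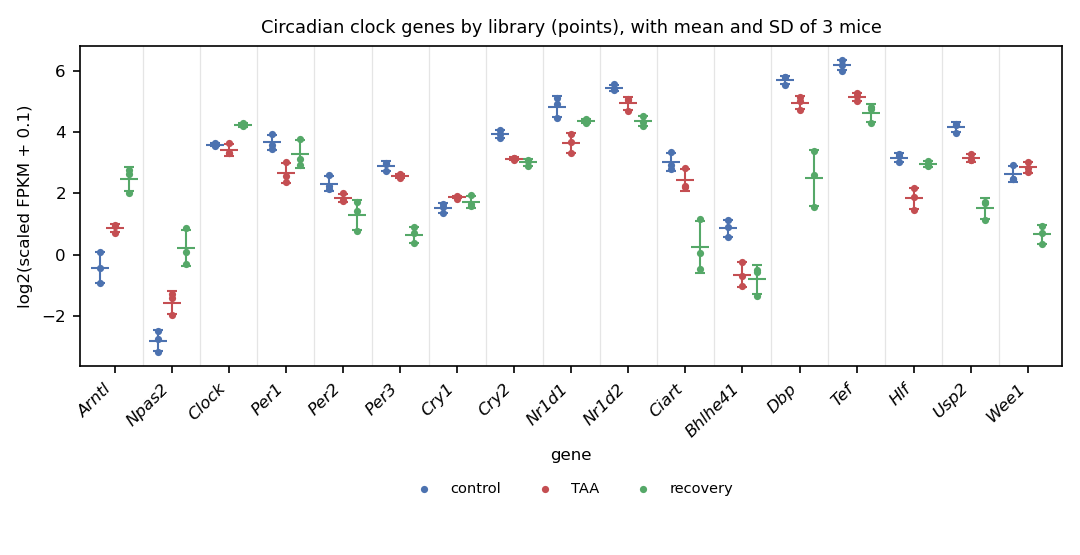
Points are single mice, on a y axis of log2(scaled FPKM + 0.1), for 17 clock genes (x axis), with the mean and SD of 3 mice per group as bars. Arntl, Npas2 and Clock are highest in the recovery group, and Per3, Ciart, Dbp, Usp2 and Wee1 are lowest there, below the TAA group.

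Genes for making and importing cholesterol were lower than in control mice, after having been higher under TAA. Of the 24 tested genes of cholesterol synthesis and uptake, 9 passed at FDR < 0.05, all of them lower, beside 1.38% of all tested genes, and 6 were DEGs. The list median was -0.30 on the log2 scale in recovery, with 22 of 24 below 0, and 1.20 under TAA, where 14 were higher DEGs. Without each library in turn, 1 to 6 of the 24 passed, the fewest without recovery replicate 2, and 4 to 9 passed under the alternatives for scaling, pseudocount, filter, moderation and samples in the fit. In the test against a 2-fold change, and with the replicate number fitted as a block, 0 of the 24 passed.

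Mvd, which makes isopentenyl pyrophosphate, was at 2.61, 2.52 and 2.07 scaled FPKM in the control mice, 1.24, 0.875 and 1.29 in the recovery mice and 6.42, 5.65 and 5.34 in the TAA mice. The recovery mice stood below both other groups, with a log2 fold change of -1.03 (SE 0.19, FDR = 0.0479) against control and -2.27 (FDR = 4.3e-05) against TAA. Lss, lanosterol synthase, was at 7.22, 6.99 and 6.85 in the control mice, 4.88, 4.63 and 4.88 in the recovery mice and 13.2 to 22.3 in the TAA mice, and was lower than in control mice by less than 2-fold (-0.54, SE 0.08, FDR = 0.0312).

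Msmo1, Stard4, Insig1 and Fdft1 were lower in recovery without having been higher DEGs under TAA. Stard4, a carrier of cholesterol between membranes, was at 40.1, 30.1 and 30.6 in the control mice and 11.8, 11.5 and 12 in the recovery mice (-1.49, SE 0.12, FDR = 0.00902), and Msmo1, a sterol methyl oxidase, at 74.1, 48.2 and 52.3 and at 17.7, 22.0 and 22.9 (-1.46, SE 0.18, FDR = 0.0193). Insig1, an anchor protein of SREBP processing, was at 80.3 to 104 and 37.0 to 42.3 (-1.17, FDR = 0.0122). Fdft1, squalene synthase, was at 17.5 to 21.8 and 9.52 to 11.5 (-0.89, FDR = 0.0238). The list did not move as a whole: Hmgcs1, at 44.6 to 57.9 and 44.2 to 63.1, had 0.10 (FDR = 0.757), Fdps had -0.06 (FDR = 0.883), and Srebf2, the transcription factor of the pathway, had -0.15 (FDR = 0.358).

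Insig2, the second anchor protein, moved the other way. It was at 88.9, 135 and 106 in the control mice, 287, 383 and 425 in the recovery mice and 41.9, 52.5 and 33.3 in the TAA mice, without overlap between any groups (1.73, SE 0.20, FDR = 0.0162 against control, and 3.10, FDR = 2.2e-05 against TAA). The 14 tested genes of fatty acid synthesis, which share regulators with the sterol genes, had 0 members past FDR < 0.05 and 2 with an unadjusted p under 0.05, with a median of -0.13.

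**Figure D4:**
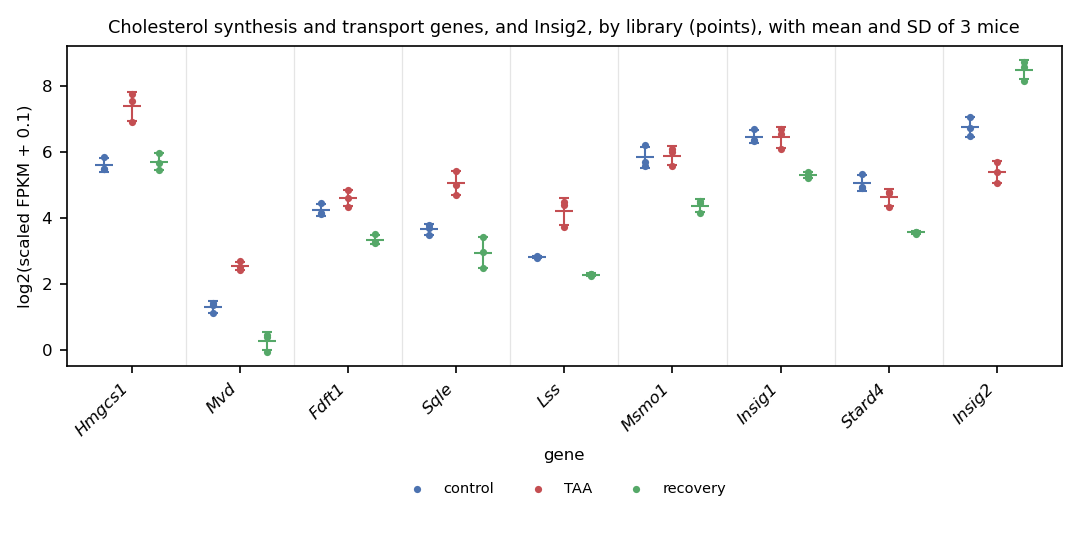
Points are single mice, on a y axis of log2(scaled FPKM + 0.1), for 8 genes of cholesterol synthesis and transport and Insig2 (x axis), with the mean and SD of 3 mice per group as bars. Mvd and Lss are highest in the TAA group and lowest in the recovery group, and Insig2 has the reverse order.

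The 58 DEGs that were not DEGs under TAA also held genes outside these groups, and those named in the next paragraphs were picked after their values had been seen. Clpx had the smallest SE of their rises. It encodes the unfoldase of the mitochondrial ClpXP protease and was at 35.5, 36.8 and 31.1 scaled FPKM in the control mice, 103, 118 and 112 in the recovery mice and 26.5 to 32.3 in the TAA mice (1.69, SE 0.09, FDR = 0.00661 against control, and 1.91, FDR = 1.2e-05 against TAA). Alas1, the first enzyme of heme synthesis, was at 203, 278 and 216 in the control mice, 114, 119 and 109 in the recovery mice and 97.0 to 137 in the TAA mice. Its fall of -1.02 (FDR = 0.0194) was like the -0.99 of the TAA group, which was not a DEG only because it fell short of 2-fold.

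Stress and signalling genes were among the newly called rises. Gadd45b, an early stress gene, was at 2.11, 1.85 and 1.53 in the control mice, 7.18, 5.95 and 5.97 in the recovery mice and 1.87 to 2.54 in the TAA mice (1.75, SE 0.15, FDR = 0.00912). Clp1, an RNA kinase of 3′ end formation, was at 2.14 to 2.83, 7.77 to 9.39 and 4.59 to 5.26 (1.78, FDR = 0.00817), and Klf2, a transcription factor of endothelium under flow, at 3.50 to 5.08, 7.22 to 10.0 and 3.27 to 4.71 (1.04, FDR = 0.0421). Map3k7, the kinase TAK1, was higher by 1.01 (FDR = 0.0106).

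A few interferon-inducible genes were higher, while no gene of the interferon list passed. Ifitm3, which blocks virus entry, was at 86.3, 96.0 and 111 in the control mice, 164, 236 and 194 in the recovery mice and 106 to 111 in the TAA mice (1.01, SE 0.15, FDR = 0.0324). Tgtp2 and Gbp6, GTPases that interferon gamma induces, and Cd274, which encodes PD-L1, were higher by 1.41, 1.12 and 1.05 (FDR = 0.0378, 0.0495 and 0.0466), and none of these 3 differed from the TAA group by the test. Of the 15 tested genes of the interferon list, 11 had a log2 fold change above 0, with a median of 0.44, and 0 passed. At an unadjusted p under 0.05, 6 were higher and 0 were lower, beside 1595 higher genes of all 14094 tested.

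Among newly called falls outside the clock and cholesterol groups, Serpine2 and Upp2 were the largest. Serpine2, protease nexin-1, was at 7.28, 5.55 and 7.22 in the control mice, 1.81, 1.26 and 1.68 in the recovery mice and 5.71 to 10.7 in the TAA mice (-2.02, SE 0.18, FDR = 0.00975), so that it differed from both other groups. Upp2, a liver uridine phosphorylase, was at 112, 71.8 and 85.2 in the control mice, 24.2, 26.9 and 16.9 in the recovery mice and 50.9 to 61.4 in the TAA mice (-1.98, SE 0.22, FDR = 0.0161). Serpina6, the corticosteroid carrier of blood, was at 47.7 to 86.2 and 19.8 to 25.2 (-1.34, FDR = 0.0463), and Enho, which encodes adropin, was lower by -1.12 (FDR = 0.0493).

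Slc30a10, which exports manganese, was another DEG with opposite directions. It was at 3.44, 4.95 and 4.47 in the control mice, 12, 9.55 and 10.3 in the recovery mice and 1.38 to 1.66 in the TAA mice (1.30, SE 0.16, FDR = 0.0185).

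Immune and endothelial cell markers did not pass, and control replicate 1 bears on them. Of the 8 Kupffer cell markers 0 passed (1 had an unadjusted p under 0.05), although all 8 had a log2 fold change above 0, with a median of 0.58 that was 0.23 without control replicate 1. Clec4f, the defining Kupffer cell lectin, was at 13.8, 32.3 and 36.2 in the control mice and 39.0, 35.2 and 36.8 in the recovery mice, with control replicate 1 far below the other 5 mice. Gpnmb, a gene of scar macrophages, went the other way in that mouse, at 22.2 against 0.188 and 0.102 in the other control mice. For MHC class II, all 8 tested genes were above 0 with a median of 0.94, 6 had an unadjusted p under 0.05 and 0 passed. Cd74, the invariant chain, was at 17.0, 22.7 and 24.2 in the control mice, 31.8, 62.1 and 62.3 in the recovery mice and 47.8 to 82.9 in the TAA mice (1.23, SE 0.28, FDR = 0.0731). The part of these cells in the genes above was not tested.

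The other marker lists showed no called gene between the groups. For monocytes and scar macrophages, 0 of 11 passed and 1 had an unadjusted p under 0.05. For sinusoidal endothelium, 0 of 8 passed and 0 had an unadjusted p under 0.05, and for capillary and vascular endothelium these were 0 and 2 of 6. Skeletal muscle markers, which reached a summed 33.1 scaled FPKM in 1 TAA library, were at 0 in the control libraries and at most 0.0101 in the recovery libraries. Igf1, the growth hormone target that the liver releases, was at 147 to 171 in the control group and 147 to 167 in the recovery group, and the fetal gene Afp was at 0.393 to 0.629 and 0.244 to 0.334, against 30.9 to 52.0 under TAA.

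Single called members of other lists were Hspa8, a constitutive heat shock chaperone, and Junb, an immediate early gene. Hspa8 was at 474 to 537 in the control group and 294 to 333 in the recovery group (-0.66, FDR = 0.0239), and Junb at 21.7 to 27.0 and 12.7 to 16.3 (-0.74, FDR = 0.0461). No other heat shock or immediate early gene passed.

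**Figure D5:**
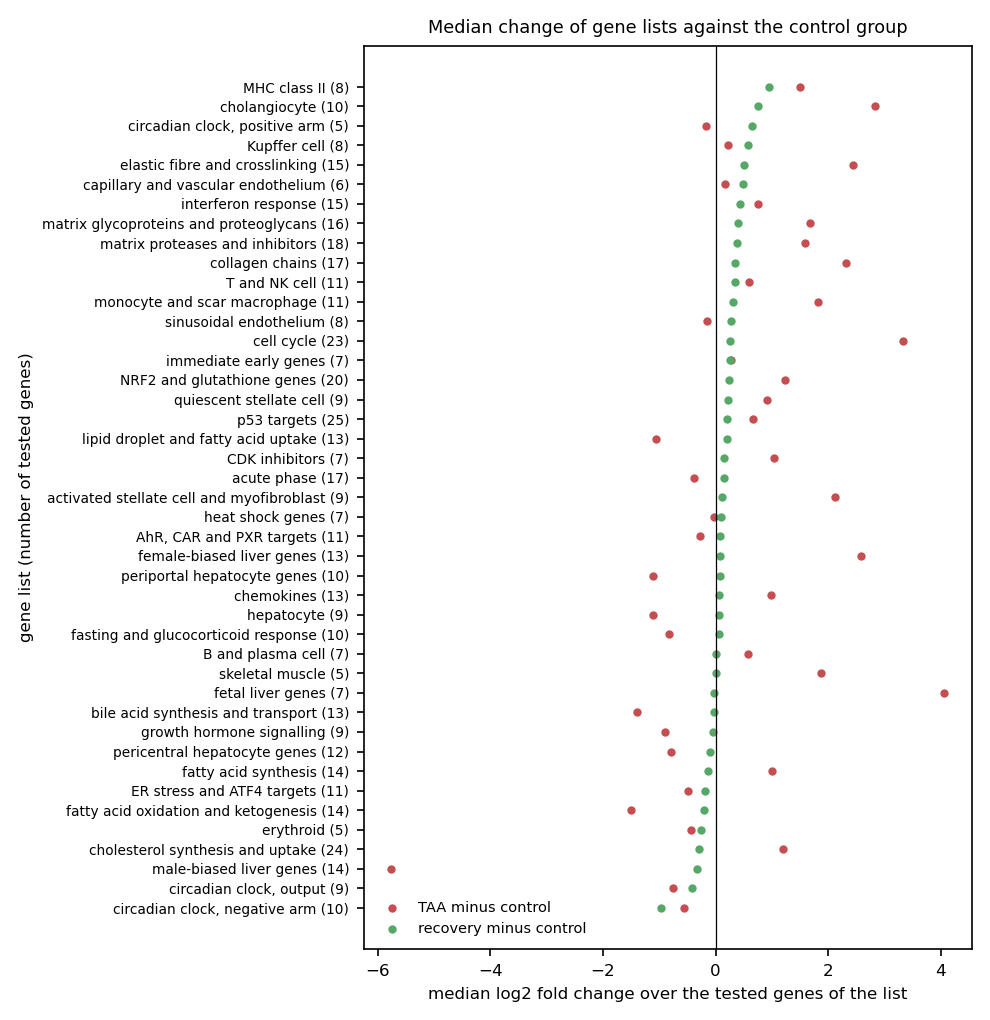
Points are the median log2 fold change (x axis) of the tested genes of each list with at least 5 tested genes (y axis, with the number of tested genes), for TAA and recovery mice against the same control libraries. Among these lists, medians of the recovery group lie between -0.97 (circadian clock, negative arm) and 0.94 (MHC class II), and those of the TAA group between -5.76 (male-biased genes) and 4.07 (fetal liver genes).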

How the data were processed

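Livers of 3 control, 3 TAA and 3 recovery mice were profiled by mRNA sequencing. The authors aligned reads with HISAT2 2.2.1 to mm10, counted them with featureCounts 1.5.0-p3 and deposited 1 table of FPKM per gene. The strand setting, the annotation release and the hour of collection are not given in the sources used here. The sequencing counts behind the FPKM were not used. The lowest values were whole multiples of 1 fragment for only 54.8 to 64.6% of values (tolerance 0.05, 10% by chance), so whole reads were not recovered and no count test was run.

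Each library's FPKM were divided by its factor from the median of ratios over the 14005 genes above 0 in all 9 libraries. Genes with a mean of at least 0.1 FPKM were tested on log2(scaled FPKM + 0.1), a scale that understates the change of low genes, with limma 3.58.1 (moderated test with a trend, two-sided) in R 4.3.3. Each comparison was fitted on its own 6 libraries, and p-values were adjusted by Benjamini-Hochberg over 14094 genes. FDR denotes that adjusted p, and DEGs passed FDR < 0.05 with a 2-fold or larger change. Fold changes are log2 values on this scale, with their SE. Tables and figures were made with Python 3.11.15. The libraries of a group come from separate mice, and p-values measure only the spread between these libraries, technical spread included.

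Genes were named when they were among the 15 largest rises or 15 largest falls of the DEGs without overlap between groups, or members of the lists. Other named genes were chosen after their values were seen. The comparison and the lists were chosen with earlier results of these data known. Replicate numbers did not pair the mice: the deviations of same-numbered mice correlated at 0.125, -0.012 and -0.017. The scripts were tested on simulated data. Alternatives changed the pseudocount, the filter, the scaling, the libraries fitted and the test. Some genes of the lists and of the DEGs are counted but not reported here by name.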

Additional observations from a re-analysis of the deposited data

How the results depend on the processing

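The direction of the 60 named or called genes was the same in all 954 values over the 16 alternatives, and 566 of these stayed on the same side of FDR < 0.05. The genes were picked by their calls in these same data, so their kept direction is no separate test. For a gene without overlap between the groups, leaving out a library cannot turn the direction. The counts moved more, and the cause was not tested. The number of DEGs was 80 (40 higher) with a pseudocount of 1, 48 (27 higher and 21 lower) without a filter on low values, 235 (151 higher) when all 9 libraries shared 1 fit, of which 135 were among the 140, and 0 by the test against a 2-fold change, with 0 higher and 0 lower. Genes with FDR < 0.05 numbered 137 without the filter, 855 in the fit of all 9 libraries and 0 by the test against a 2-fold change. DEGs also called in the TAA group were 31, 27, 140 and 0 under those 4 settings in the same order, and DEGs not called in the TAA group were 20 without the filter and 0 by the test against a 2-fold change. Leaving out each library in turn gave 32 to 106 DEGs, 15 to 69 higher, 16 to 41 lower, 39 to 194 genes with FDR < 0.05, 16 to 65 DEGs shared with TAA and 16 to 49 not called in TAA. The fewest DEGs were left without recovery replicate 2. Fitting the replicate number as a block, although the numbers did not pair the mice, left 17 DEGs (9 higher and 8 lower), 19 genes with FDR < 0.05, 9 DEGs shared with TAA and 7 not, with 4 clock genes called and 0 genes of the cholesterol, Hist1 and male-biased lists. Not every mouse correlated best with its own number. FPKM as deposited moved the median of all genes from 0.01 to 0.08 on the log2 scale. With 3 mice per group and FPKM in place of counts, the depth behind low genes such as Npas2, Moxd1 and Mmp7 could not enter the test.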
